A study of Homo sapiens with 10 samples.

Results

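The AP-1 transcription factor subunits were followed as transcripts in a salivary gland squamous cell carcinoma line in which the phosphatase DUSP1 had been targeted. The members were the rows named FOS, FOSB, FOSL1, FOSL2, JUN, JUNB, JUND, ATF3, BATF and BATF3, which are 10 of the 58735 genes in the count table, and 9 of them had enough counts to be tested. All groups were A253 cells, a human line of salivary gland squamous cell carcinoma (SG-SCC), grown in DMEM with 10% FBS and sequenced as poly(A)-selected RNA. Control cells carried Cas9 and an sgRNA against dTomato, a sequence that human cells do not have, and Cl1 and Cl10 were clones in which a pair of sgRNAs in the flanking introns had removed exon 2 of DUSP1 from part of the alleles (DUSP1-/+). Each group had 2 libraries. Each clone descends from its own founder cell, so its libraries are replicates of that clone and not of the genotype, and whether the control was a pool or a clone was not given in the sources used here. The methods speak of biological replicates for the study's experiments in general, but neither they nor the labels say for these libraries whether replicates came from separate cultures. The p-values then measure the spread between these libraries, which may be technical.

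AP-1 is a dimer of basic leucine zipper (bZIP) proteins. FOS subfamily proteins need a partner, usually of the JUN subfamily, while JUN proteins also pair with each other, and the dimers bind the sequence TGACTCA (the TRE) or the related TGACGTCA (the CRE). FOS, FOSB, JUN and JUNB are immediate-early genes, whose transcription follows growth factors, serum and stress through ERK, JNK and p38, and the same kinases phosphorylate the proteins they encode. DUSP1 removes phosphate from these 3 kinases, which is why AP-1 lies downstream of the targeted gene. In squamous epithelia, AP-1 dimers also act at genes of differentiation and of matrix remodelling. RNA levels do not show phosphorylation or dimer formation.

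Promoter sequence is shown for 4 subunits, because FOS, FOSB and JUN rose in at least 1 clone and JUND, which passed the test in no comparison, holds the complete CRE. The choice was made after the values were seen. The sequences are the 250 bases before the RefSeq start on GRCh38.p14, read 5′ to 3′ on the strand of the gene, with motif matches in capitals. FOS lies at chr14:75278578-75278827 on the plus strand, FOSB at chr19:45467746-45467995 on the plus strand, JUN at chr1:58784048-58784297 on the minus strand and JUND at chr19:18281623-18281872 on the minus strand.
FOS: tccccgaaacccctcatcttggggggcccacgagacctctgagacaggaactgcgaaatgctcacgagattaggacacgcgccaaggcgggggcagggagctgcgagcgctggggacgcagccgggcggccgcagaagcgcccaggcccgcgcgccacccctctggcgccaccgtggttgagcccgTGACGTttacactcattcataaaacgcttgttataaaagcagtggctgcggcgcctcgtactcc
FOSB: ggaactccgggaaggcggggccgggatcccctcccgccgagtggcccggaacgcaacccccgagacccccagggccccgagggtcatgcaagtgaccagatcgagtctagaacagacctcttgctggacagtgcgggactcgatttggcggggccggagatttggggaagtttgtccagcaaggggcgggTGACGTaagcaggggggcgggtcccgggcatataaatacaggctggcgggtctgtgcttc
JUN: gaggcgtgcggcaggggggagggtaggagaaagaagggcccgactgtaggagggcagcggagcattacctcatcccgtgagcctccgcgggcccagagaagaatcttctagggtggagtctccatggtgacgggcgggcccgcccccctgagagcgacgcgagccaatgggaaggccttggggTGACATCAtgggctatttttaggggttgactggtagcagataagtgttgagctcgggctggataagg
JUND: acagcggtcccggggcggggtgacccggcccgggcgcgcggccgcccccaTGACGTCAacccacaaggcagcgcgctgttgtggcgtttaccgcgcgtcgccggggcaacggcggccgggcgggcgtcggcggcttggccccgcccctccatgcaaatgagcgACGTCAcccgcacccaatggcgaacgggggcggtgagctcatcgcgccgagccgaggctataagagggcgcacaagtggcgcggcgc

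Both strands were searched for TGACTCA, TGACGTCA, its shorter form TGACGT (which every TGACGTCA also holds), TGACATCA and the CArG box, bound by SRF. TGACGT ended 59 bases before the start in FOS, 55 in FOSB and 61 in FOSL2. JUN held TGACATCA 67 to 60 bases before its start, and ATF3 held the same letters 123 to 116 bases before the start of its upstream RefSeq entry. In JUND, TGACGTCA lay 200 to 193 bases before the start and the reverse-strand form of TGACGT a second time, 87 to 82 bases before it. JUNB, BATF and the downstream ATF3 entry held none of the motifs, and no TGACTCA or CArG match was found in any of these windows. Of 34788 RefSeq promoter windows of the same length, 4.21% held TGACTCA, 1.64% TGACGTCA, 7.09% TGACGT, 2.36% TGACATCA and 1.17% a CArG box. RefSeq windows were found for 8 of the 10 members, and FOSL1 and BATF3 are named only. A match describes letters and not binding. Sequence further upstream was not searched, so the absence of a match holds only for these 250 bases.

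Library totals ran from 47016495 to 70986593 counts, with replicate 1 deeper than replicate 2 in every group. All 9 squamous epithelial markers (KRT5, KRT14, TP63 and others) were over 3 counts in every library, with a summed level of 13584 to 15791 CPM (counts scaled to the library's effective size). Fibroblast markers summed to 44.3 to 49.8 CPM in control, 45.7 to 48.7 in Cl1 and 29.8 to 31.5 in Cl10, with LUM at 0 throughout. Leukocyte markers summed to 6.25 to 7.08, 10.9 to 14.3 and 8.94 to 10.1 CPM in the same order, and endothelial markers to 2.73 to 4.41, 5.68 to 7.75 and 3.20 to 4.15 CPM, with KDR at 0. COL1A1 and COL3A1 made up most of the fibroblast sum, CD14 most of the leukocyte sum and VWF most of the endothelial sum. The other markers of these lists had between 0 and 41 counts per library. Mitochondrially encoded genes took 3.71% and 4.06% of counts in control, 4.14% and 4.12% in Cl1, and 2.74% and 2.72% in Cl10. The part of these differences in the results was not tested.

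The targeted gene was examined first. DUSP1 (ENSG00000120129, hg38 chr5:172768096-172771195) had 743 and 634.5 normalized counts in control, 303.5 and 353 in Cl1 and 494 and 414.5 in Cl10, where a normalized count is the count scaled by TMM factors to the mean library of the 6. All 4 clone libraries lay below both control libraries. On the log2 scale DUSP1 changed by -1.07 in Cl1 (adjusted p = 0.000292) and by -0.59 in Cl10 (adjusted p = 0.0113). Its nearest tested neighbours on the chromosome had medians of -0.28 in Cl1 and 0.09 in Cl10. With these medians subtracted, the values were -0.79 in Cl1 and -0.69 in Cl10. Every adjusted p, unless another tool is named, comes from edgeR's quasi-likelihood test over all genes with Benjamini-Hochberg adjustment. Without Cl10 replicate 2, the value in Cl10 was -0.48 and its adjusted p was 0.0794 (range over 12 alternatives 2.22e-10 to 0.0794). Gene-level counts include the exons that remain and do not measure the deletion itself. By western blot, the paper found no DUSP1 protein in either clone, and it selected them for this reason. The RNA levels given here are therefore not a measure of remaining protein.

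In the clones, FOS and FOSB rose in both, JUN rose in Cl10, and FOSL1 fell in Cl1 but was slightly higher in Cl10. JUNB and JUND, the most abundant subunits, and FOSL2, ATF3 and BATF3 did not pass the test against control. In Cl1, 3 of 9 tested members passed (adjusted p under 0.05), 2 of them higher and 1 lower, where 25.1% of all 20153 tested genes passed, 12.4% higher and 12.8% lower. In Cl10, 4 of 9 passed and all 4 were higher, where 42.5% of 19875 tested genes passed, 20.6% higher and 21.8% lower. With a log2 fold change above 1 in size also required, which is what called means here, FOS and FOSB were called in Cl1 and FOS and JUN in Cl10, all as higher. In Cl1 7.54% of genes were called, 4.27% as higher, and in Cl10 13.4%, 5.98% as higher. The median log2 fold change of the 9 members was -0.08 in Cl1 and 0.0001 in Cl10, beside -0.01 over all genes in each. The fits share the control libraries, so a deviation of a control library moves both clones' values. In bulk RNA, fewer cells expressing a gene and less RNA per cell cannot be told apart.

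**Figure D1:**
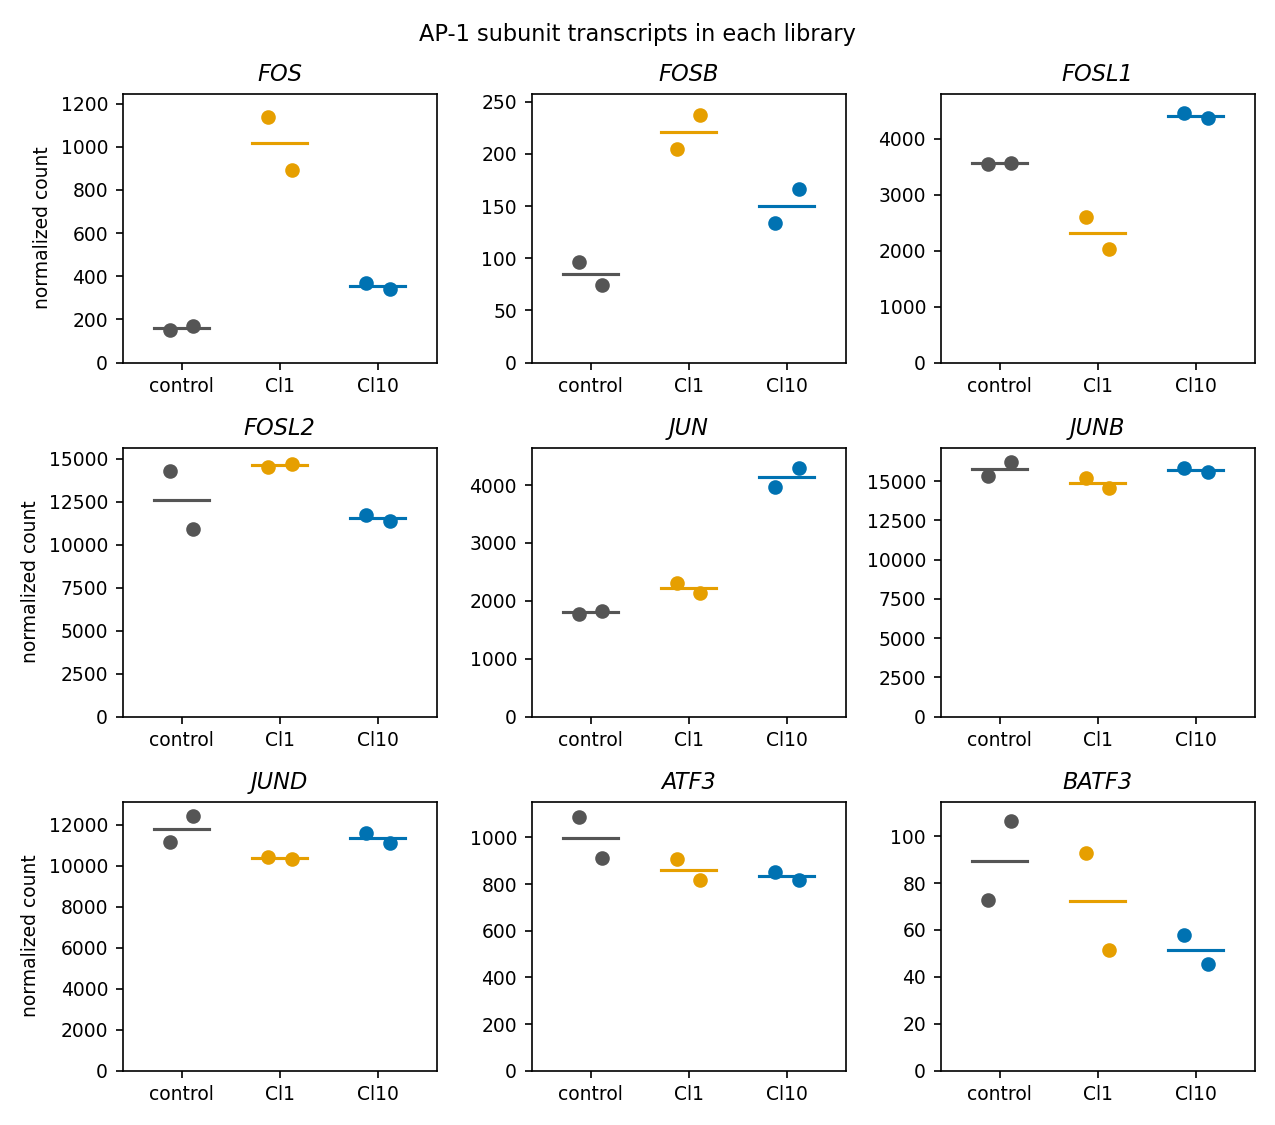
Normalized counts (y axis, linear from 0, a scale of its own in each panel) of the 9 tested subunits in the control, Cl1 and Cl10 libraries (x axis). Points are libraries and lines are means of 2; FOS in Cl1 sits at 895 and 1138 against 151.2 and 172 in control, and JUN in Cl10 at 3975 and 4302 against 1781 and 1817 in control.

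FOS (ENSG00000170345, chr14:75278826-75282230, 4 exons), the founding FOS subunit, had 151.2 and 172 normalized counts in control, 1138 and 895 in Cl1, and 371 and 340.5 in Cl10. The 3 groups did not overlap, with Cl1 highest and control lowest. Groups of 2 libraries often separate: 8 of the 9 tested members did not overlap between Cl1 and control, where 63.6% of genes did not, and 6 of 9 between Cl10 and control, where 73.8% did not. The means were 161 ± 14.5, 1016 ± 172 and 356 ± 21.5 (SD, n = 2 each). FOS rose 6.33-fold in Cl1 (log2 fold change 2.66, 95% interval 2.31 to 3.02, adjusted p = 4.63e-07) and 2.22-fold in Cl10 (1.15, 0.81 to 1.48, adjusted p = 0.000992). The Cl1 replicates differed beyond counting error, with a ratio of 1.27 between them (exact 95% interval 1.16 to 1.39, counting error only). Its 50 nearest tested neighbours on the chromosome were at a median of 0.05 (Cl1) and -0.03 (Cl10) on the log2 scale.

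FOSB (ENSG00000125740, chr19:45467995-45475179, 4 exons), the closest relative of FOS in sequence and regulation, was scarcer, with 96.3 and 74.1 normalized counts in control, 205 and 237 in Cl1, and 133 and 166 in Cl10. Again no clone library fell within the control range, and Cl1 was the highest group. FOSB rose 2.57-fold in Cl1 (log2 fold change 1.36, 95% interval 0.92 to 1.82, adjusted p = 0.000539) and 1.75-fold in Cl10 (0.81, 0.29 to 1.32, adjusted p = 0.0232). The direction in Cl10 held when either of its libraries was left out, at 0.97 without replicate 1 and 0.64 without replicate 2. Without replicate 2 it no longer passed the test, and fewer of all genes passed as well. FOSB lies inside the span of ERCC1 on the opposite strand, with 0 shared exon bases. FOS and FOSB together are the pair of FOS genes that serum and kinase signalling induce most sharply.

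FOSL1 (ENSG00000175592, chr11:65892049-65900573, 4 exons) encodes FRA-1, a FOS-related subunit common in carcinoma cells. Its normalized counts were 3554 and 3565 in control, 2593 and 2027 in Cl1, and 4457 and 4369 in Cl10. Cl1 lay below and Cl10 above the control libraries, which differed by less than counting error (ratio 0.997, exact 95% interval 0.952 to 1.04). FOSL1 fell in Cl1 by 0.62 on the log2 scale (95% interval -0.90 to -0.35, adjusted p = 0.00371), but without Cl1 replicate 2 the value was -0.45 and the adjusted p 0.113 (range 5.83e-08 to 0.113). It was 1.24-fold higher in Cl10 (log2 fold change 0.31, 0.14 to 0.49, adjusted p = 0.0150). That value did not stand apart from its position, because the 50 nearest genes had a median of 0.40, and the difference from them was -0.09. When a Cl10 library was left out the size of the value held (0.31 without replicate 1 and 0.33 without replicate 2), while the adjusted p was 0.245 and 0.210 (range over alternatives 3.85e-09 to 0.385).

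FOSL2 (ENSG00000075426, chr2:28392448-28417317, 4 exons) encodes FRA-2. It had 14303 and 10909 normalized counts in control, 14530 and 14717 in Cl1, and 11728 and 11402 in Cl10. The control libraries were far apart, with a ratio of 1.31 (exact 95% interval 1.28 to 1.34), and their span held both Cl10 libraries, while both Cl1 libraries lay just above it. The log2 fold change was 0.22 in Cl1 (95% interval -0.09 to 0.52, adjusted p = 0.289) and -0.12 in Cl10 (-0.43 to 0.19, adjusted p = 0.495). The control library decided both values. Without control replicate 1 the log2 fold change was 0.42 in Cl1 (adjusted p = 0.00240, range 0.00240 to 0.866) and 0.08 in Cl10 (adjusted p = 0.121), and without control replicate 2 it was -0.31 in Cl10 (adjusted p = 1.61e-11, range 1.61e-11 to 0.781).

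JUN (ENSG00000177606, chr1:58776845-58784048, 1 exon), the JNK substrate c-Jun, had 1781 and 1817 normalized counts in control, 2308 and 2141 in Cl1, and 3975 and 4302 in Cl10. The groups did not overlap, and here Cl10 was the highest. JUN rose 2.31-fold in Cl10 (log2 fold change 1.21, 95% interval 1.01 to 1.40, adjusted p = 0.000125), and the 50 nearest genes had a median of -0.03. In Cl1 its log2 fold change was 0.31 (0.08 to 0.54) with an adjusted p of 0.0520, and the nearest genes had a median of 0.22. The adjusted p for Cl1 ran from 0.0200 to 0.607 over 12 alternatives, with 0.0327 once control replicate 1 was left out and 0.0200 once control replicate 2 was.

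JUNB (ENSG00000171223, chr19:12791486-12793315, 1 exon) is a JUN subunit that activates fewer genes than c-Jun and can oppose it. It had 15331 and 16246 normalized counts in control, 15200.4 and 14541 in Cl1, and 15860 and 15608 in Cl10. The Cl1 libraries lay below the controls, and Cl10 overlapped them. Its log2 fold changes were -0.08 in Cl1 (95% interval -0.34 to 0.18, adjusted p = 0.654) and 0.0001 in Cl10 (-0.19 to 0.19, adjusted p = 0.999). These intervals leave out a change of the size seen for JUN in Cl10. JUNB shares 259 exon bases (14.2% of its exon bases) with HOOK2 on the opposite strand, and the strand setting of the counting was not given, so reads there cannot be assigned with certainty.

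JUND (ENSG00000130522, chr19:18279694-18281622, 1 exon), the JUN subunit that is expressed most constantly in resting cells, had 11182 and 12416 normalized counts in control, 10441 and 10350 in Cl1, and 11603 and 11106 in Cl10. Cl1 lay below the control libraries, and Cl10 overlapped them. The log2 fold change was -0.18 in Cl1 (95% interval -0.44 to 0.08, adjusted p = 0.295) and -0.05 in Cl10 (-0.26 to 0.16, adjusted p = 0.678). Without control replicate 1 the value in Cl10 was -0.13 and its adjusted p 0.00715 (range 0.00715 to 0.960). The nearest genes had medians of -0.19 and -0.22.

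ATF3 (ENSG00000162772, chr1:212565334-212620777, 4 exons), a stress-induced bZIP protein that mostly represses as a homodimer, had 1085 and 911 normalized counts in control, 905 and 817.5 in Cl1, and 851.5 and 816 in Cl10. All clone libraries were below both controls, but by small amounts. Its log2 fold change was -0.21 in Cl1 (95% interval -0.50 to 0.07, adjusted p = 0.267) and -0.26 in Cl10 (-0.52 to 0.01, adjusted p = 0.106). Without control replicate 2 the value in Cl10 was -0.38 and its adjusted p 2.74e-05 (range 2.74e-05 to 0.420). In Cl1 the nearest genes had a median of 0.24, and the difference from them was -0.46 with an adjusted p of 0.0251 (range 0.0251 to 0.722).

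BATF3 (ENSG00000123685, chr1:212686417-212699840, 3 exons), a short bZIP protein without an activation domain, known chiefly from dendritic cells and lymphocytes, had only 38 to 109 counts per library. Its normalized counts were 72.6 and 106 in control, 92.9 and 51.5 in Cl1, and 57.9 and 45.4 in Cl10. Replicates differed beyond counting error in control (ratio 0.683, exact 95% interval 0.506 to 0.922) and in Cl1 (1.81, 1.26 to 2.62). Both Cl10 libraries lay below both control libraries and overlapped Cl1, with a log2 fold change of -0.77 against control (95% interval -1.42 to -0.12, adjusted p = 0.0586), while Cl1 overlapped control at -0.27 (-0.93 to 0.39, adjusted p = 0.555). The value in Cl10 was -1.03 without control replicate 1 (adjusted p = 0.00102) and -0.96 without Cl10 replicate 1 (adjusted p = 0.0465), and over 12 alternatives the adjusted p ran from 0.00102 to 0.191. BATF (ENSG00000156127, chr14:75522455-75546993, 3 exons), its relative in lymphocytes, had 0 counts in all 4 control and Cl10 libraries and 2 and 3 counts in Cl1. A count of 0 allows up to 3 counts, so no fold is given, and BATF was not tested.

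The clones were then compared with each other, which tests whether the effects against the shared controls differed. Of the 9 members, 5 passed, 2 higher and 3 lower in Cl10, where 49.0% of 19818 tested genes passed, 24.9% higher and 24.1% lower. Their libraries did not overlap for 7 of 9, as for 74.8% of genes. FOS was 1.51 lower on the log2 scale in Cl10 than in Cl1 (log2 fold change -1.51, 95% interval -1.78 to -1.25, adjusted p = 7.62e-07), the only member called, where 10.8% of genes were called, 6.28% as lower. JUN went the other way and was 1.86-fold higher in Cl10 (0.90, 0.75 to 1.04, adjusted p = 4.01e-07). FOSL1 was 1.91-fold higher in Cl10 (0.93, 0.74 to 1.13, adjusted p = 3.6e-06). FOSL2 was slightly lower in Cl10 (-0.33, -0.46 to -0.21, adjusted p = 0.000425). FOSB was lower too (-0.56, -0.93 to -0.19, adjusted p = 0.0166), but its adjusted p was 0.152 without Cl10 replicate 1 and 0.0694 with DESeq2 (range over alternatives 0.00180 to 0.152). JUNB (0.08, -0.04 to 0.21), JUND (0.13, 0.00 to 0.26), ATF3 (-0.05, -0.24 to 0.15) and BATF3 (-0.50, -1.16 to 0.17) did not pass. Without Cl1 replicate 1, JUNB and JUND passed (adjusted p = 0.0225 and 0.00789), as did JUND and BATF3 without Cl1 replicate 2 (0.0248 and 0.00906). Over all alternatives the adjusted p ran from 0.0217 to 0.780 for JUNB, from 0.00695 to 0.517 for JUND, from 0.00692 to 0.962 for ATF3 and from 0.00906 to 0.977 for BATF3. The lowest for ATF3 came with a changed sign, at 0.34, once the median of its neighbours (-0.39) was subtracted.

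**Figure D2:**
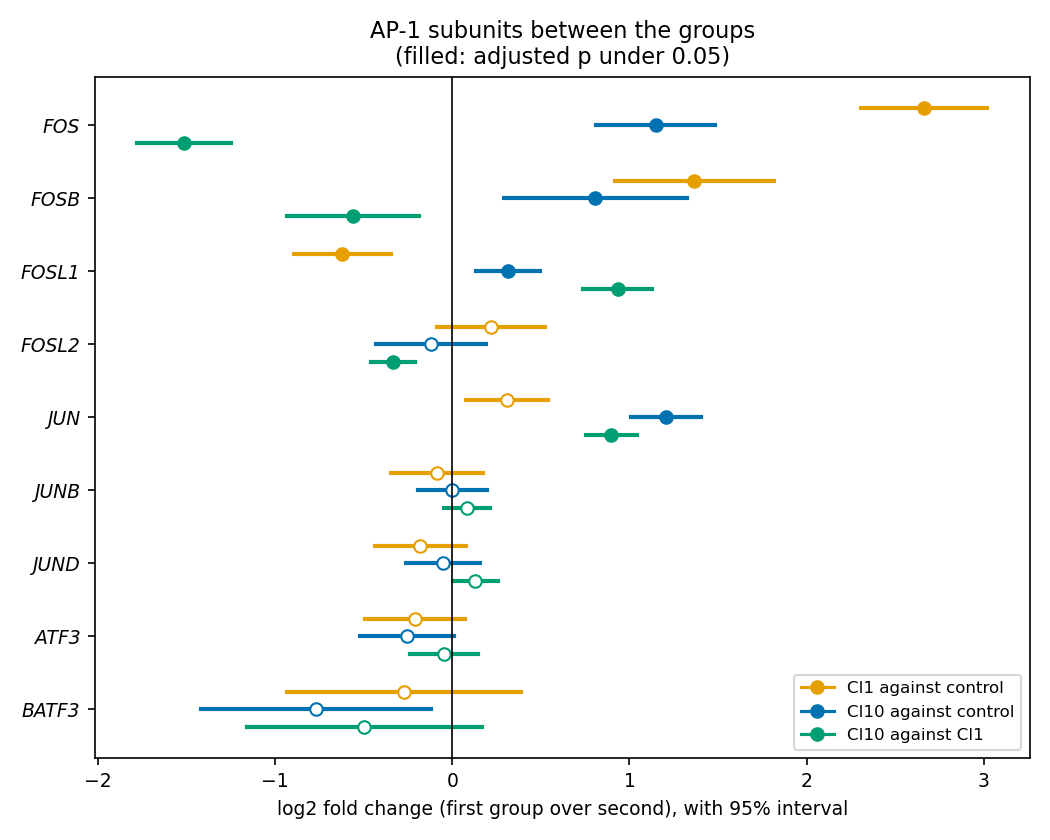
Log2 fold changes (x axis, first group over second) of the 9 tested subunits (y axis) for Cl1 against control, Cl10 against control and Cl10 against Cl1. Points are estimates, lines are 95% intervals and filled points have an adjusted p under 0.05; FOS is at 2.66, 1.15 and -1.51, JUN at 0.31, 1.21 and 0.90, and all JUNB and JUND points are open.

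Levels per length show which subunits make up the AP-1 transcripts. CPM per kilobase of the canonical GENCODE v44 transcript was used, with means and SDs of 2 libraries. In control the order was JUNB (150.1 ± 6.15), JUND (106 ± 7.87), FOSL1 (36.4 ± 0.079), FOSL2 (32.7 ± 6.22), JUN (9.61 ± 0.137), ATF3 (8.96 ± 1.10), BATF3 (1.86 ± 0.495), FOS (1.34 ± 0.120), FOSB (0.393 ± 0.0724) and BATF at 0. FOSL1 and FOSL2, and JUN and ATF3, overlapped between libraries and are not ordered by these data. In Cl1, FOS reached 8.41 ± 1.42 CPM per kilobase, overlapping ATF3 (7.73 ± 0.558) and passing BATF3 (1.503 ± 0.610), while FOSL2 (37.9 ± 0.342) stood above FOSL1 (23.6 ± 4.10). In Cl10, FOSL1 (45.1 ± 0.635) stood above FOSL2 (30.0 ± 0.599), JUN reached 22.1 ± 1.24, and FOS was at 2.94 ± 0.177. With the union of all annotated exons as the length, the order changed only by swaps with BATF3. It moved below FOS in control and below FOSB in both clones.

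As a share of the summed CPM per kilobase of the 4 FOS genes, FOS held 1.66% and 2.14% in control, 12.6% and 10.98% in Cl1, and 3.85% and 3.62% in Cl10. FOSL1 held 48.4% and 54.8% in control, 35.6% and 30.8% in Cl1, and 57.2% and 57.4% in Cl10, and FOSL2 held most of the remainder. The summed level itself was 66.5 to 75.1 CPM per kilobase in control, 67.4 to 74.5 in Cl1 and 77.8 to 79.7 in Cl10, so the subfamily's total in Cl1 overlapped control while its makeup did not. In the JUN subfamily, JUN held 3.72% and 3.52% in control, 4.91% and 4.71% in Cl1, and 7.67% and 8.46% in Cl10. JUNB held between 54.5% and 57.6% in all 6 libraries. With exon-union lengths the mean FOS share was 1.38%, 8.77% and 2.73% in control, Cl1 and Cl10, in the same order but smaller. FOS and FOSB, the subunits with the widest change, were a small part of the subfamily's transcripts even in Cl1. Shares are descriptions and were not tested.

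**Figure D3:**
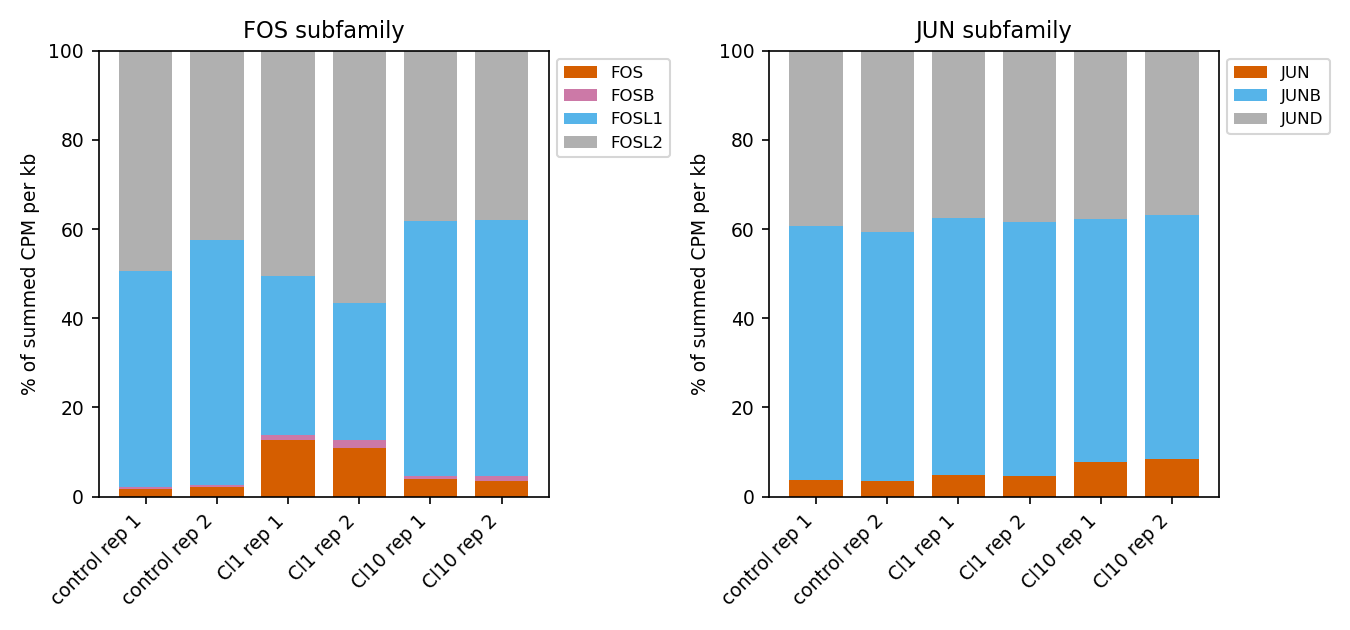
Share of each gene in the summed CPM per kilobase (y axis, percent) of the FOS subfamily (left) and JUN subfamily (right) in each of the 6 libraries (x axis). FOS widens from 1.66% and 2.14% in control to 12.6% and 10.98% in Cl1, and JUN from 3.72% and 3.52% to 7.67% and 8.46% in Cl10.

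Other genes of the pathway were read from 5 lists, and their counts stand beside 12.4% of all genes higher and 12.8% lower in Cl1, and 20.6% and 21.8% in Cl10. Among 16 further bZIP genes, 2 rose and 4 fell in Cl1 (median log2 fold change -0.27) and 4 rose and 9 fell in Cl10 (-0.31). MAF, a bZIP factor with a binding site related to the TRE, rose most in both, with 685 and 754 normalized counts in control, 3078 and 3395 in Cl1 (log2 fold change 2.17, adjusted p = 1.93e-07) and 2611 and 2521 in Cl10 (1.84, adjusted p = 4.42e-05). DDIT3 (CHOP), an endoplasmic reticulum stress factor, fell from 1729 and 1723 normalized counts to 511.5 and 579 in Cl1 (-1.66), and Cl10 had 316 and 336 (-2.40, where the nearest genes had a median of -0.80). ATF4, which activates DDIT3 under stress, fell by 1.16 in Cl10 (nearest genes -0.75). ATF5 fell in Cl1 (-0.61), rose in Cl10 (1.10) and differed between the clones by 1.71. The count past the test in Cl1 (6) was 10 in 1 fit over all 6 libraries. All genes then went from 2489 higher and 2575 lower to 2991 and 3162. That in Cl10 (13) was 8 with the median of neighbours subtracted, where all genes went from 4103 and 4336 to 3978 and 3776. It also fell without either Cl10 library, as did that over all genes.

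The 19 kinases and upstream factors (ERK, JNK and p38 genes, their kinases, SRF and ELK factors) had few members past the test. In Cl1 only ELK3 passed, at -0.70, and in Cl10 MAPK8 (0.31) and MAPK10 (0.36), which encode JNK kinases, were higher while RPS6KA2 (-0.97) and ELK3 (-0.45) were lower. The 50 nearest genes had medians of 0.33 at MAPK8, as large as its own value, 0.05 at MAPK10, -0.58 at RPS6KA2 and -0.03 at ELK3. These genes are named because the counts are small and were chosen after their values were seen. The count in Cl10 was unstable. It rose when either control library was left out and fell when either Cl10 library was. The number of all genes that passed moved the same way, so this instability is not particular to the list. In Cl1 the count rose without control replicate 1, as did that over all genes. Of 7 genes of AP-1 protein turnover and cofactors, FBXW7 and COP1, ubiquitin ligase components that act on JUN, were higher in both clones. Their values were 0.49 and 0.42 in Cl1 and 0.48 and 0.33 in Cl10. The coactivator CREBBP was higher in Cl10 (0.81). In Cl1 the nearest genes had medians of -0.04 at FBXW7 and 0.27 at COP1. In Cl10 they were at -0.07, 0.04 and, at CREBBP, 0.03. The count of turnover genes past the test in Cl1 fell without Cl1 replicate 2 and rose without control replicate 1. In Cl10 it rose without control replicate 1. The count over all genes moved the same way each time.

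Of 25 textbook AP-1 target genes, 5 rose and 6 fell in Cl1 among 21 tested (median -0.07), and 11 rose and 9 fell in Cl10 among 24 tested (median 0.22), beside 12.4% and 12.8% of all genes in Cl1 and 20.6% and 21.8% in Cl10. Of 5 listed metalloproteinases, MMP1, MMP3, MMP10 and MMP13 rose in Cl10, and MMP9 (0.40, adjusted p = 0.585) did not pass. MMP1, an interstitial collagenase, had 321 and 326 normalized counts in control, 268 and 358 in Cl1, and 2013 and 1958 in Cl10 (log2 fold change 2.62, adjusted p = 1.56e-05). MMP13, another collagenase, had 182 and 202, then 373 and 435, then 2168 and 1982, with 1.07 in Cl1 and 3.44 in Cl10. MMP10, a stromelysin, had 8.45 and 15.0 in control and 109.9 and 83.6 in Cl10 (3.08). Between the clones, MMP1 differed by 2.69, MMP13 by 2.37 and MMP10 by 2.85 on the log2 scale, higher in Cl10. CCL2, a monocyte chemokine, was counted 5 and 4 times in control, 1 and 1 in Cl1, and 50 and 49 in Cl10. Going the other way, IL1B (interleukin 1 beta) fell in Cl1 (-3.98) and Cl10 (-1.44), as did AREG (the EGF receptor ligand amphiregulin, -1.13 and -1.39) and VIM (vimentin, -5.12 and -5.45). The cornified envelope genes IVL (3.86 and 4.56) and SPRR1A (1.14 and 1.87) rose in both clones. Their 50 nearest genes had medians of 0.49 and 0.56 at IVL and of 0.41 and 0.56 at SPRR1A.

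Among 16 other immediate-early genes, 6 rose and 1 fell in Cl1 (median 0.33), and 5 rose and 3 fell in Cl10 (median 0.21). Over all genes 12.4% rose and 12.8% fell in Cl1, and 20.6% and 21.8% in Cl10, and 42.5% passed in either direction there. EGR1, a zinc-finger factor induced by ERK, had 562.5 and 547.5 normalized counts in control, 1378.5 and 1505 in Cl1, and 589 and 474 in Cl10. It rose in Cl1 (log2 fold change 1.38, adjusted p = 7.67e-06) and its value in Cl10 was -0.06 (adjusted p = 0.755), a difference between the clones of -1.43 (adjusted p = 3.56e-07). EGR3 rose in Cl1 (2.58, and 3.24 without control replicate 1), with 8 and 3 counts in control and 38 and 26 in Cl1. Without Cl10 replicate 1 its difference between the clones was -0.80 (adjusted p = 0.274, range 0.0207 to 0.274), beside -1.04 with all libraries. In Cl10, CYR61 and CTGF, matricellular genes that serum induces, rose by 1.23 and 1.49. DUSP6, an ERK phosphatase that ERK induces, rose by 1.35 in Cl10. It also rose in Cl1 (0.85, adjusted p = 0.00196), below the size that a call requires. The nuclear receptor NR4A1 fell by 1.12 in Cl10, where its nearest genes had a median of -0.40. Between the clones, CYR61 (1.39) was higher and NR4A1 (-1.46, nearest genes -0.57) lower in Cl10. Counts of this list that passed fell without Cl1 replicate 2 in Cl1, and without either Cl10 library in Cl10, as did those over all genes.

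Between the clones, 4 of the further bZIP genes were higher and 7 lower in Cl10 than in Cl1, as were 6 and 4 of the kinases and upstream factors, 2 and 1 of the turnover genes, 12 and 6 of the textbook targets, and 4 and 8 of the other immediate-early genes. Over all genes 24.9% were higher and 24.1% lower, 49.0% together. The totals for the kinases and the turnover genes depended on the alternative. That for the kinases fell without either Cl10 library and that for the turnover genes without Cl10 replicate 1, as did that over all genes.

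**Figure D4:**
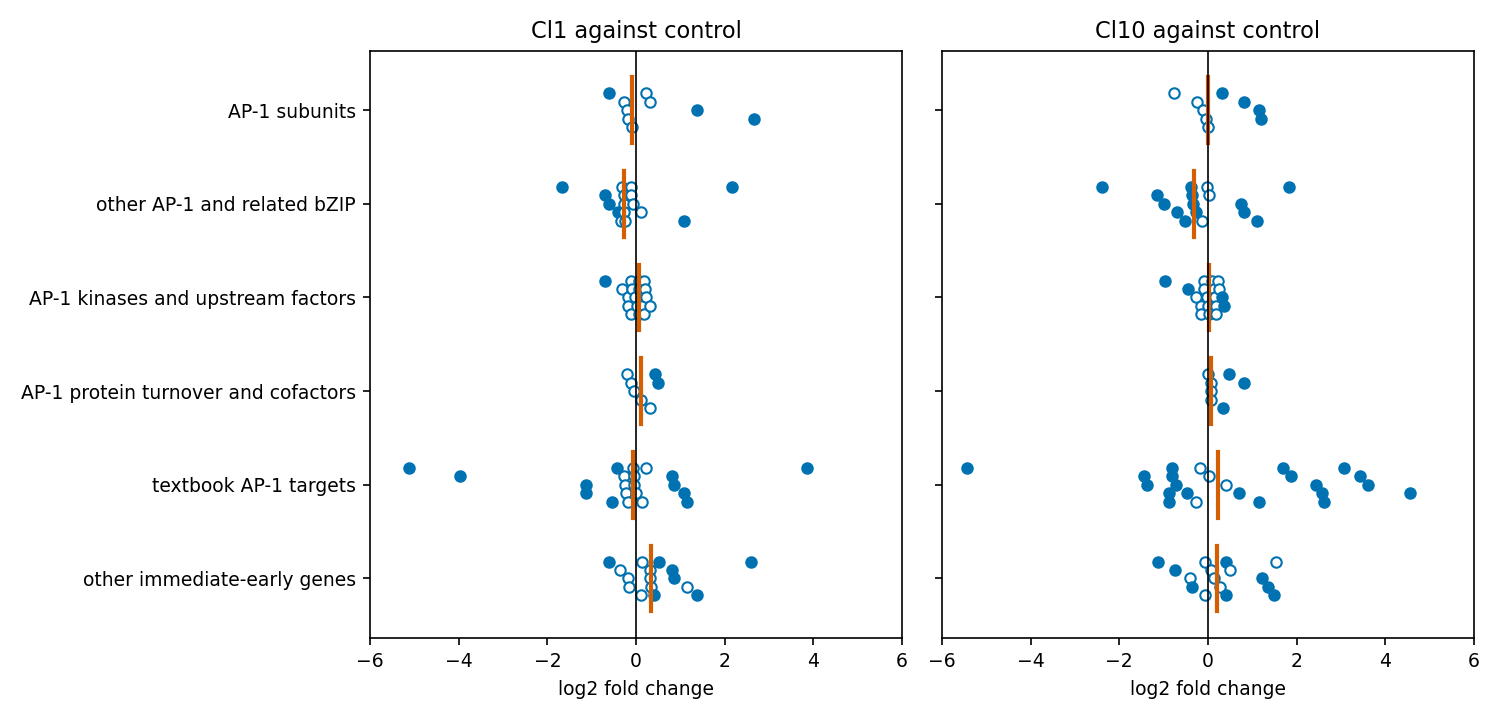
Log2 fold changes (x axis) of the tested genes of each list (y axis) in Cl1 (left) and Cl10 (right) against control. Each point is a gene, filled where the adjusted p is under 0.05, and the orange line is the median of the list; the AP-1 subunits have medians of -0.08 and 0.0001, and the textbook targets spread widest, from VIM at -5.12 and -5.45 to IVL at 3.86 and 4.56.

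FOS had the widest range of group means among the members, 2.63 on the log2 CPM scale, followed by FOSB (1.36), JUN (1.20), FOSL1 (0.94), BATF3 (0.75), FOSL2 (0.34), ATF3 (0.25), JUND (0.18) and JUNB (0.09). The genes whose centred log2 CPM lay closest to that of FOS over the 6 libraries were PRSS8, IGFBP3, CAPS, S100A9 and SNCG. Their root mean square differences from FOS were 0.138, 0.185, 0.189, 0.213 and 0.222, where the median of 11654 ranked genes was 1.11. PRSS8 (the epithelial protease prostasin) went from a mean of 182 normalized counts in control to 1236 in Cl1 and 400.03 in Cl10. S100A9, a calcium-binding protein of differentiating and inflamed epithelium, went from 581 to 4106 and 1326 in the same order. None of these 5 genes is an AP-1 subunit or in the lists above. These are similarities over 6 libraries of the same 3 groups and were not tested.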

How the data were processed

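RNA of A253 control cells and the DUSP1-/+ clones Cl1 and Cl10 (2 libraries each, grouped by their labels) was analysed; 4 of the 10 samples belong to a SOX2 experiment and were not analysed here. The paper's methods give HISAT2 (genome hg38) for alignment and HTSeq for counting, and the authors deposited raw counts of each gene. StringTie is also named among the upstream tools, and which tool gave the counts was not settled here. The labels name a stranded kit and the methods a TruSeq kit; the strand setting, annotation and versions are not given in the sources used here. Genes with enough counts (filterByExpr) were tested with edgeR 4.0.16 in R 4.3.3 (TMM, estimateDisp, glmQLFit, glmQLFTest, Benjamini-Hochberg), each comparison with only its own libraries, and the steps were tested on simulated data. Intervals of fold changes rest on a standard error derived from the F statistic. DESeq2 1.42.0 was an alternative. Coordinates and lengths come from GENCODE v44, which holds 58207 of the 58735 identifiers. Intervals of replicate ratios and the floor of 3 counts cover counting error only.

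Members and lists were chosen with earlier results of these data known, and the lists are not independent evidence. Named genes are the 10 members, DUSP1, list genes called in the same direction in both clones, the 3 with the largest change called in each comparison, and the 5 genes most like the member of widest range (mean CPM at least 5). Alternatives were other size factors, no TMM, DESeq2, other filters, 1 fit over 6 libraries, the replicate block, a local correction by the 50 nearest genes and leaving out each library; exon-union lengths were added after the data were seen. Replicate numbers did not pair the libraries. A gene that the rule names is not reported here.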

Additional observations from a re-analysis of the deposited data

Results flagged for a closer look

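The differences from control of 5 subunits were not the same in the clones, as tested directly by Cl10 against Cl1. From edgeR's quasi-likelihood test, the log2 fold change of Cl10 over Cl1 was -1.51 for FOS, -0.56 for FOSB and 0.93 for FOSL1. It was -0.33 for FOSL2 and 0.90 for JUN. The difference for FOSB depended on the tool, since it did not pass with DESeq2 (-0.55, adjusted p = 0.0694). FOS and JUN lay above control in every library of both clones, with FOS higher in Cl1 and JUN higher in Cl10. However, JUN in Cl1 did not pass against control (adjusted p = 0.0520 with edgeR), and its nearest genes had a median of 0.22. FOSL1 lay below control in both Cl1 libraries and above it in both Cl10 libraries. Its value in Cl10 (0.31) did not stand apart from its nearest genes, which had a median of 0.40. Each clone is 1 clone, so a difference between the clones cannot be told apart from one between their founder cells, and is not a test of the deletion. Between these groups 49.0% of all tested genes passed. No group had the 4 libraries that a test for a library standing apart needs.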

How the results depend on the processing

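With 2 libraries per group, precision is limited by the spread between replicates, which exceeded counting error for BATF3 too in control and Cl1, and by depth for BATF. Refits of named genes (members, DUSP1 and called list genes under each alternative) numbered 825. Of these, 770 kept direction and side of the threshold, 21 gained and 17 lost the test in the same direction, and 17 changed sign. List genes entered only in comparisons where they were called, so they could not gain the test. Among them only EGR3 between the clones lost it under any alternative. The pooled count therefore does not measure how stable the members were. The number of members past the test in Cl1 (3) rose without control replicate 1 and fell without Cl1 replicate 2. In Cl10 (4) it rose without either control library, fell without Cl10 replicate 2, and was 2 with a log2 fold change above 1 required. With these libraries left out, the number of all genes that passed moved the same way. Between the clones the number of members (5) changed with the library left out, and was 1 with that requirement. When a library was left out, the lone library was assumed to vary like the other group. With the replicate number as a block the counts were 3, 5 and 5; BATF3 in Cl10 then passed (-0.75, adjusted p = 0.0237), and no other member's call changed. Same-numbered libraries did not deviate together (r = -0.068, -0.018 and 0.010 over 20582 genes). All sign changes were in members close to 0 or unstable: JUND in Cl1 (0.0094 after the median of neighbours was subtracted), BATF3 in Cl1 (0.022 without control replicate 2, and from -0.785 to 0.071 over all left-out libraries), FOSL1 in Cl10 (-0.0895 after neighbours), FOSL2 in Cl10 (-0.308 to 0.0808, the highest without control replicate 1), JUNB in Cl10 (-0.017 without a filter, -0.0028 with at least 10 counts, -0.0049 in 1 fit over 6 libraries, -0.010 after neighbours, -0.0062 without Cl10 replicate 1, and from -0.050 without control replicate 1 to 0.0359), JUND in Cl10 (0.17 after neighbours, and from -0.132 to 0.021, the highest without control replicate 2), ATF3 between the clones (0.028 with library size only, 0.34 after neighbours, and from -0.124 to 0.030, the highest without Cl1 replicate 1) and BATF3 between the clones (-0.843 to 0.014, likewise). The cause was not tested. Without TMM, 1942 genes passed as higher and 3191 as lower in Cl1 (2489 and 2575 with it), and 5910 and 3939 between the clones (4932 and 4774); the median of all genes moved to -0.08 and 0.07.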
